A study of Mus musculus with 16 samples.

Results

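Fn1 encodes fibronectin, a large secreted glycoprotein of the extracellular matrix and of blood plasma, and it was followed here through all 12 of its transcript rows among 67139 rows of 22392 genes. It was chosen because its translation efficiency (TE), the ribosome footprints of a gene relative to its RNA, differed between the clone KO1 and WT cells. The values of the clones against WT cells are therefore a description without a test, and the comparison of KO3 with KO2, which uses none of the KO1 or WT libraries, is the one that was tested. The cells were Hepa1-6, a mouse hepatoma line, either WT or with a homozygous deletion of exon 5 of Eef1d, a subunit of the translation elongation factor complex EEF1B. The 3 clones #1, #2 and #3 (KO1, KO2 and KO3) are single-cell clones made by CRISPR/Cas9, and each of them stands for 1 clone and not for the genotype as a whole. KO1 and KO2 were made with the same pair of guides, whereas KO3 was made with another guide in intron 4, so the ends of its deletion need not be the same. A difference between KO3 and KO2 therefore cannot be told apart from one between clones or between guide pairs. Every line had 2 replicates, each measured by RNA-seq and by Ribo-seq of the same lysate, which gave 16 libraries. All were grown in the same medium without another treatment. The labels number the replicates and do not say that they came from separate cultures, so the p-values measure the spread between these libraries.

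Fibronectin binds cells through integrins, above all the pair formed by Itga5 and Itgb1, and it is assembled into fibrils outside the cell. Hepatocytes secrete the plasma form, whereas many other cells make a cellular form that carries extra domains. The forms arise from 1 gene by splicing of 2 exons that are taken whole or skipped, EDB and EDA, and of a variable region, V, that can be included whole, without its beginning or not at all.

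In the GRCm38 build Fn1 occupies chromosome 1, minus strand, between positions 71585520 and 71653200, and its longest coding sequence (Fn1-201, ENSMUST00000055226.12) has 2477 codons in 46 coding exons. EDB is coding exon 25 (from 71613763 to 71614035, 91 codons), EDA is coding exon 33 (from 71603660 to 71603929, 90 codons), and V is the first part of coding exon 40 (from 71597388 to 71597747, 120 codons, of which the beginning has 25). Only Fn1-201 holds EDB among the 12 rows. Fn1-214 (ENSMUST00000188894.6, 2386 codons) holds EDA and the whole V, Fn1-211 holds EDA and V without its beginning, and Fn1-213 holds EDA without V. Fn1-203, Fn1-217 and Fn1-216 repeat these 3 states of V without EDA. These 7 transcripts are the full-length ones. The other 5 rows are short: Fn1-206 (160 codons) and Fn1-208 (ENSMUST00000186940.6, 383 codons) start at the start codon and cover parts of codons 1 to 250 and 1 to 346, whereas Fn1-205 (within codons 419 to 647), Fn1-209 (1851 to 1903) and Fn1-210 (1936 to 2220) have no annotated start and are annotated as targets of nonsense-mediated decay. Fn1-208 leaves the common exons behind coding exon 7 and reads on into the intron for 37 codons (from 71642847 to 71642959).

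The exons that separate the transcripts are shown so that the parts compared below can be seen. All are on the minus strand and are written 5′ to 3′, with the alternative part in capitals and 10 bases of flank in lower case (30 bases of coding exon 7 before the part that is read on).
EDB, chr1:71613753-71614045: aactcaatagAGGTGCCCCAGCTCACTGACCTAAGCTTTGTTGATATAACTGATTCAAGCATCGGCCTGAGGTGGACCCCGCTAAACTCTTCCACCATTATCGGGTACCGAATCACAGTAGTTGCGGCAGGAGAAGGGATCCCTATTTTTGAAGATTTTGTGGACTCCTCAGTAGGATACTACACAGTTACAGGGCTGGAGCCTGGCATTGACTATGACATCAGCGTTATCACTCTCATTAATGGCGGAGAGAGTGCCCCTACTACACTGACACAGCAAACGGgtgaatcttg
EDA, chr1:71603650-71603939: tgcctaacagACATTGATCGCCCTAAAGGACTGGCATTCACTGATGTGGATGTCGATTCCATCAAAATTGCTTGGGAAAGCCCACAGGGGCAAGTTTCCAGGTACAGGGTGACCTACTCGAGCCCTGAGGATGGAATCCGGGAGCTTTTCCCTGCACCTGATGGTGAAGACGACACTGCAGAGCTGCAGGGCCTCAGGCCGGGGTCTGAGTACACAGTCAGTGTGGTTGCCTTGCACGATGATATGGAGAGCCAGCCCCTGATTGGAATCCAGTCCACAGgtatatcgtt
Beginning of V, chr1:71597663-71597757: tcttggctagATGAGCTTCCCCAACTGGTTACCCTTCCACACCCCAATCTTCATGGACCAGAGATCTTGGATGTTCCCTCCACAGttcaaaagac
Intron part of Fn1-208, chr1:71642847-71642989: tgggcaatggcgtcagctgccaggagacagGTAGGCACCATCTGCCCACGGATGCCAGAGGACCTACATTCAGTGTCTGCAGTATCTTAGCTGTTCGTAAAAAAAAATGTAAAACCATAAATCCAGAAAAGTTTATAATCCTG

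A read was counted on every transcript of the gene that it fits. A read on an exon that all 7 full-length transcripts share is thus in all 7 counts, and the 12 rows are not independent measurements. The total per library was 24726706 to 30748268 counts in RNA-seq and 2604223 to 11147904 in Ribo-seq, and the KO1 Ribo-seq libraries were both the deepest and the shallowest. Fn1-214, the row with the largest total over the 16 libraries, had 22593 to 38283 RNA counts and 2693 to 12645 footprint counts. Among genes ranked by the count of their main transcript, the rank of Fn1 was between 8 and 27 for RNA-seq and between 32 and 66 for Ribo-seq. With counts divided by codons its rank was between 375 and 527 for RNA and between 538 and 911 for footprints. The deletion of Eef1d exon 5 was seen in all 12 libraries of the clones: the count of the Eef1d transcript with exon 5 was 116.0% and 116.2% of that without it in the WT RNA-seq libraries and 89.8% to 92.6% in those of the clones, and in Ribo-seq 112.6% to 114.0% in WT and 96.0% to 98.9% in the clones. As for the hepatoma identity, RNA counts of Alb (2922 to 22982) and Afp (3723 to 14161) were high, while Ttr and Apoa1 had 0 to 14 counts and Fgg had 0 in all 8 RNA-seq libraries. Of the fibroblast genes, Dcn had 8700 to 13863 counts, Col1a1 had 7 to 38 and Pdgfrb 0 or 1. The 6 endothelial and leukocyte markers summed to 1.10 to 3.66 CPM, the count scaled to the library's size, which is the level used below.

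Fn1 RNA was lowest in KO1 and highest in KO3, whereas its footprints were highest in KO1. Fn1-214 RNA was at 1140 and 1084 CPM in the WT libraries and at 932 and 906 CPM in KO1. It was at 1021 and 1097 CPM in KO2 and at 1183 and 1311 CPM in KO3. Thus both KO1 libraries lay below the other 6 and both KO3 libraries above them, while KO2 overlapped with WT. In order, the means were 1247 ± 90.5 CPM in KO3, 1112 ± 39.5 in WT, 1059 ± 53.8 in KO2 and 919 ± 18.8 in KO1 (SD, n = 2 each), of which only the neighbours WT and KO2 overlapped.

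Footprints of Fn1-214 were at 808 and 852 CPM in WT and at 1118 and 999 CPM in KO1. In KO2 they were at 751 and 636 CPM, and in KO3 at 799 and 808 CPM. Both KO1 libraries lay above the other 6 and both KO2 libraries below, and WT and KO3 overlapped. The TE, as log2 of footprint CPM over RNA CPM, was -0.50 and -0.35 for WT. It was 0.26 and 0.14 for KO1, -0.44 and -0.79 for KO2, and -0.57 and -0.70 for KO3. KO1 was thus the line in which Fn1 had more footprint than RNA CPM, and KO2 overlapped with both WT and KO3. The TE of Fn1 was also ranked among genes with at least 100 counts in all 4 libraries of a line. It was at percentile 23.5 of 4181 genes for WT and 47.6 of 2200 for KO1. For KO2 it was at 19.8 of 4837 and for KO3 at 19.8 of 5037. The sets of genes differed between lines, with a median log2 TE of 0.10, 0.24, 0.05 and 0.04 in the same order. The percentiles therefore do not compare directly across lines.

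**Figure D1:**
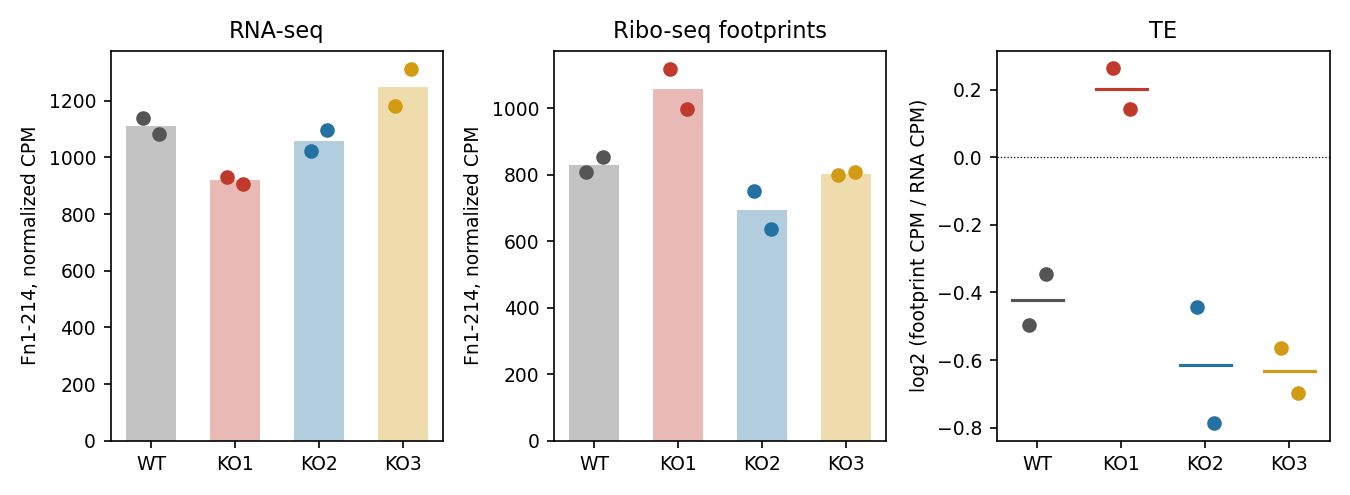
Fn1-214 in each library: RNA-seq and Ribo-seq in normalized CPM (bars are means of the 2 replicates, points are the replicates) and TE as log2 of footprint CPM over RNA CPM (lines are means, points are replicates). KO1 has the lowest RNA, at 932 and 906 CPM, and the highest footprints, at 1118 and 999 CPM.

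Against WT, Fn1-214 in KO1 had a log2 change of -0.28 (SE 0.0321) in RNA, 0.37 (SE 0.0591) in footprints and 0.64 (SE 0.0681) in TE, which is 0.826-fold, 1.29-fold and 1.56-fold. Lower RNA and higher footprints both entered this TE value. Among all transcripts tested, 40.6% in RNA, 23% in footprints and 0.168% in TE were called in KO1 against WT (edgeR's quasi-likelihood test, adjusted p under 0.05). Nothing was read from that for Fn1, since it was chosen from this contrast. In KO2, the log2 changes against WT were -0.07 (SE 0.0392) in RNA, -0.25 (SE 0.0617) in footprints and -0.19 (SE 0.0777) in TE, beside 15.4%, 8.72% and 0.0157% of transcripts called. The KO2 values rested on the replicates: without single libraries RNA ranged from -0.12 to -0.01, and TE was -0.36 without KO2 replicate 1 and -0.02 without KO2 replicate 2. KO3 had log2 changes of 0.17 (SE 0.0378) in RNA, -0.05 (SE 0.0556) in footprints and -0.22 (SE 0.0661) in TE, beside 37%, 24.5% and 0.0939% called. The 3 comparisons share the WT libraries. In TE, the direction in KO1 was opposite to that in KO2 and KO3, and this difference was not tested.

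In the comparison that could be tested, Fn1 RNA and footprints were higher in KO3 than in KO2, and a difference in TE was not found. RNA of Fn1-214 was higher by 0.24 on the log2 scale (SE 0.0495, edgeR adjusted p = 0.000251), and footprints were higher by 0.21 (SE 0.0653, edgeR adjusted p = 0.0154). Its TE differed by -0.03 (SE 0.0841, 95% confidence interval from -0.19 to 0.14, edgeR adjusted p = 1.0), and the interval does not show that the clones are alike in TE. All 12 rows were called higher in RNA, where 42.5% of all transcripts were called and 21% were called higher, and 8 of 12 were called higher in footprints, where the shares were 31.7% and 15.4%. In TE edgeR called 0 of 12 rows, where 0.148% of transcripts were called. At an unadjusted p under 0.05 there was 1 (Fn1-209), and DESeq2 called 0. DESeq2 called 10 of 12 rows in RNA and 2 of 12 in footprints. The footprint call of Fn1-214 was lost with DESeq2 (adjusted p = 0.055), in libraries thinned to the smallest of their assay (edgeR adjusted p = 0.0896) and without KO2 replicate 2 (a log2 difference of 0.10, edgeR adjusted p = 0.311).

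The order of the lines in Fn1 RNA was also that of the summed RNA of the hepatocyte markers. Of the markers looked at singly, Alb, Afp and Trf (2264 to 8283 counts) had the most counts, so the sum mainly follows these. The sum (12 genes, 7 with at least 10 counts in both libraries of every line) was 997 to 1075 CPM for WT and 397 to 398 for KO1. It was 771 to 828 for KO2 and 1467 to 1534 for KO3. The 7 fibroblast and stellate markers, among which Dcn had the most counts of those listed, summed to 378 to 401 CPM for WT, 345 to 371 for KO1, 297 to 349 for KO2 and 449 to 464 for KO3. The part of these markers in the Fn1 values was not tested, and in such bulk libraries fewer cells of a kind and less RNA per cell cannot be told apart.

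The 7 full-length transcripts moved alike in each clone, whatever their EDB, EDA and V. In KO1 their log2 changes against WT lay from -0.28 to -0.25 in RNA, from 0.36 to 0.40 in footprints and from 0.635 to 0.644 in TE. In KO2 the TE changes lay from -0.20 to -0.19, and in KO3 from -0.22 to -0.21. Most of their reads are common to all of them, so near equal values had to follow from the counting, and the rows say little of the single exons.

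The rows of the short transcripts did not all follow, and those at the start of the coding sequence stood apart in KO1 RNA. Fn1-208 had 201 and 196 RNA CPM for WT, 226 and 221 for KO1, 173 and 198 for KO2 and 210 and 243 for KO3. Both KO1 libraries were thus above WT, whereas those of the full-length transcripts were below. Against WT in KO1, the log2 change of Fn1-208 was 0.17 (SE 0.0435) in RNA, 0.60 (SE 0.0687) in footprints and 0.43 (SE 0.081) in TE. Fn1-206, which lies within the same exons and lacks the intron part, had 0.18 (SE 0.0561), 0.63 (SE 0.0839) and 0.44 (SE 0.0965). Both rows from the start codon thus had higher RNA counts in KO1 than in WT, and a smaller change in TE than the full-length rows. Of their coding bases, 481 of 481 in Fn1-206 and 1036 of 1149 in Fn1-208 are shared with Fn1-201. Reads there are counted on the full-length rows too. The values therefore describe the start of the Fn1 coding sequence, and the level of either short transcript by itself was not measured.

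Farther along the coding sequence, the RNA changes in KO1 were negative, though at Fn1-205 and Fn1-209 those in KO2 were as well. Fn1-205 had a log2 RNA change of -0.24 (SE 0.14) and Fn1-209, which rests on 44 to 114 RNA counts, one of -0.70 (SE 0.241). For Fn1-210, next to the end, it was -0.49 (SE 0.0663) in RNA, 0.31 (SE 0.0969) in footprints and 0.79 (SE 0.114) in TE. In KO2 the RNA change was -0.25 (SE 0.139) for Fn1-205 and -0.43 (SE 0.228) for Fn1-209. At Fn1-208 it was -0.09 (SE 0.0556), with -0.19 to 0.0037 without single libraries, and at Fn1-210 -0.05 (SE 0.0648). For KO3 it was 0.20 (SE 0.0508) at Fn1-208 and 0.20 (SE 0.0631) at Fn1-210, so that in these clones Fn1-208 and Fn1-210 differed by less than their errors.

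**Figure D2:**
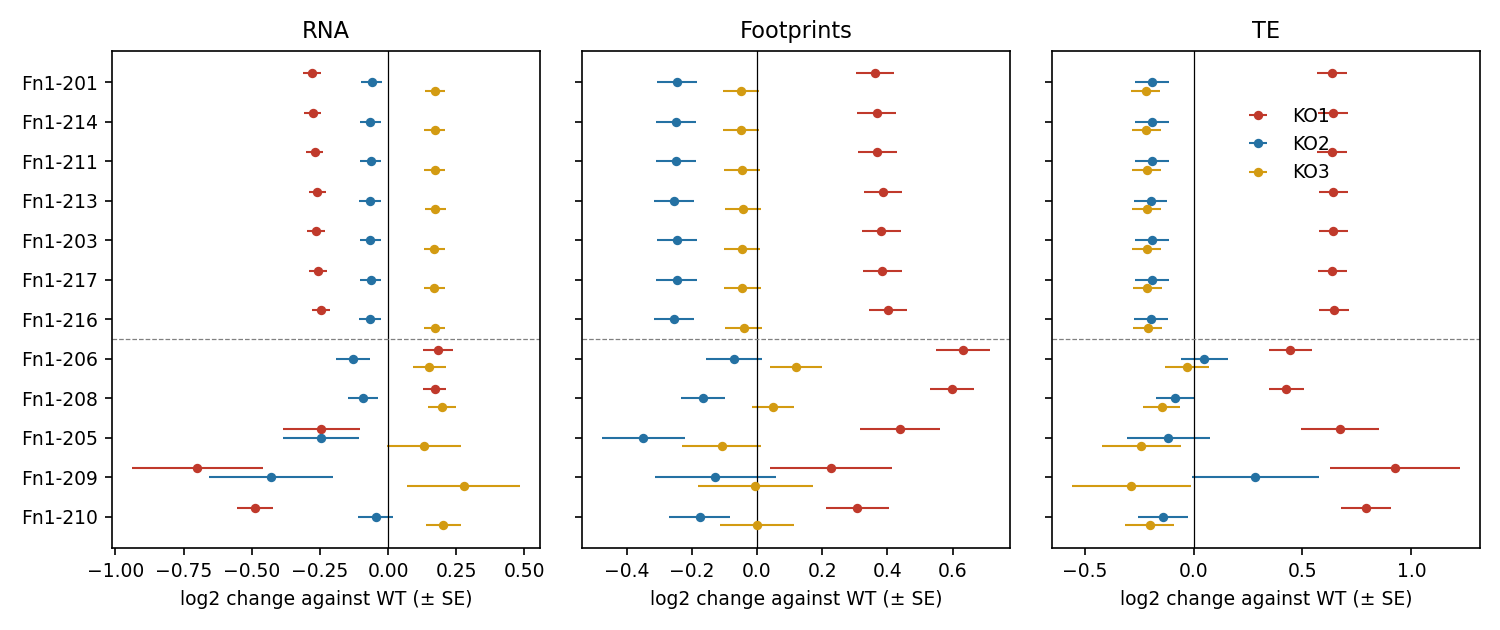
Log2 change of each clone against WT (x axes, point ± SE from edgeR) for the 12 Fn1 rows, in RNA, footprints and TE, with the full-length transcripts above the dashed line and the short ones below. The full-length rows form straight columns, and in KO1 RNA the rows Fn1-206 and Fn1-208 sit at 0.18 and 0.17 while Fn1-210 sits at -0.49.

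The start of the coding sequence was therefore set against the rest of it in every library. Fn1-208 had 17.6% and 18.1% of the RNA count of Fn1-214 for WT, 24.2% and 24.4% for KO1, 16.9% and 18.1% for KO2 and 17.8% and 18.6% for KO3. Both KO1 libraries lay apart from the other 6. In footprints the share was 20.5% and 20.4% for WT, 24.0% and 23.5% for KO1, 21.1% and 22.1% for KO2 and 21.1% and 22.7% for KO3, with KO1 again above the other 6 and a smaller gap. The count of Fn1-208 was taken off that of Fn1-214 to give the rest of the coding sequence. Reads on the 37 intron codons of Fn1-208, which Fn1-214 lacks, were taken off too. In KO1 the rest had log2 changes against WT of -0.39 in RNA, 0.29 in footprints and 0.68 in TE. For Fn1-208 the same means of log2 CPM gave 0.17, 0.56 and 0.39. Values of the rest per codon, here and for EDA and V below, used 2003 codons. Per codon, the ratio of the start to the rest in RNA was 1.15 and 1.18 for WT, 1.71 and 1.73 for KO1, 1.09 and 1.18 for KO2 and 1.16 and 1.22 for KO3. In footprints the ratio was 1.38 and 1.37 in WT, 1.69 and 1.65 in KO1, and 1.43 to 1.57 in the 4 libraries of KO2 and KO3. By share and by ratio, the footprints of KO2 and KO3 thus also lay above both WT libraries. Their RNA values overlapped with those of WT.

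**Figure D3:**
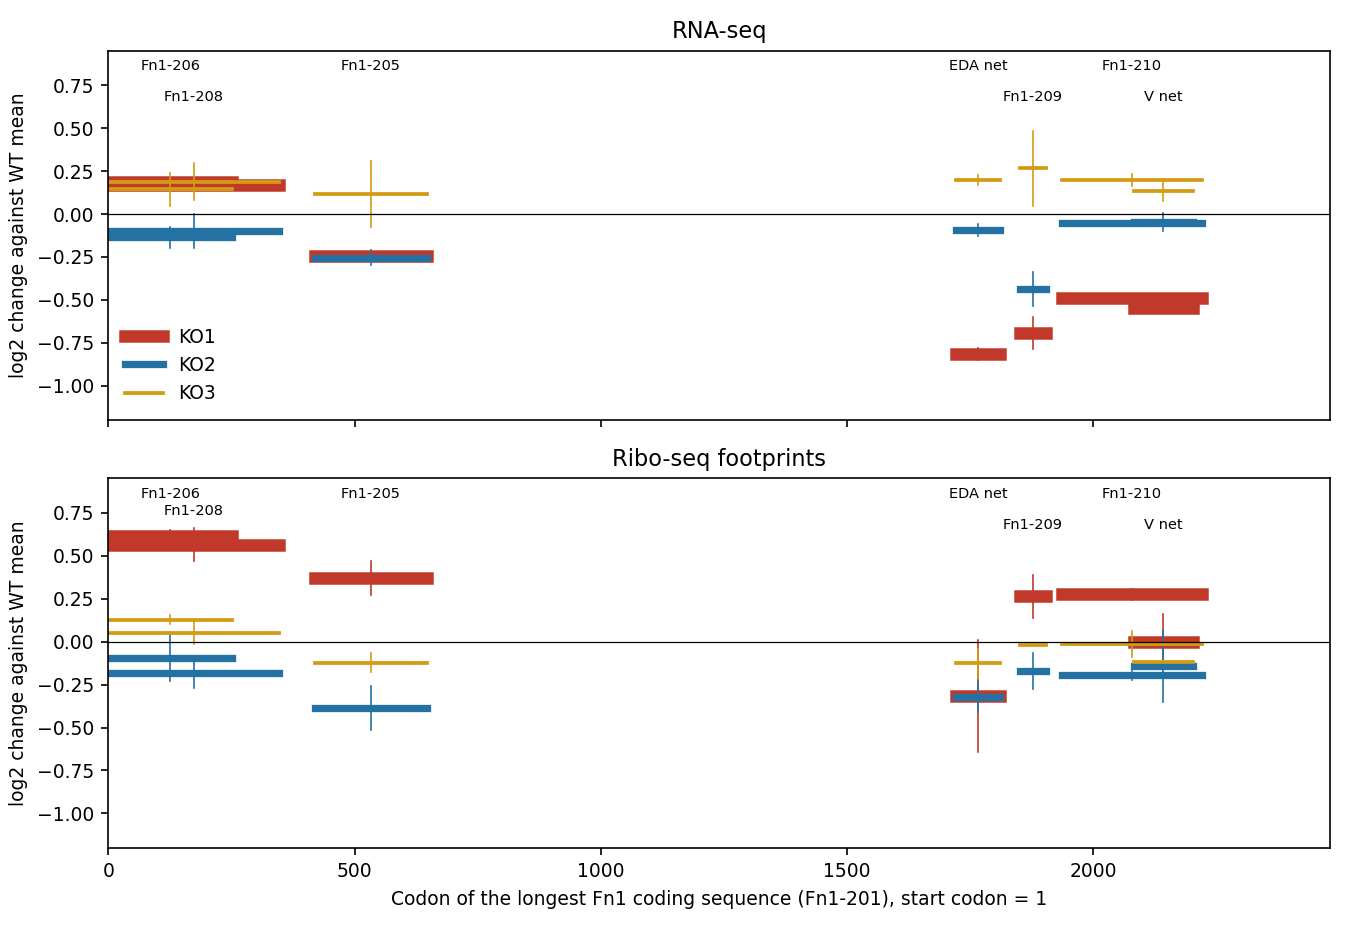
Log2 change of each clone against the WT mean (y axes, means of log2 CPM) at the codons that each short transcript, EDA and V cover in the longest Fn1 coding sequence (x axis, codon number). Horizontal lines are means and thin vertical lines join the 2 replicates. KO1 RNA is at 0.18 at the start and at -0.49 at Fn1-210, while KO3 RNA stays above 0. KO1 footprints are at 0.62 at the start and at 0.28 at Fn1-210. EDA and V are differences of counts between transcripts with and without them, and not levels at those codons. In KO1 RNA the EDA difference is at -0.82. At EDA the 2 KO1 replicates in footprints are at 0.01 and -0.65, the latter from 41 counts, and their mean of -0.32 is also that of KO2.

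Other genes with a short transcript from the same start codon gave the background of this ratio. The set was chosen after the Fn1 values were seen. Fn1 itself was chosen from the KO1 and WT libraries, so its place among these genes in KO1 is a description and not a test. In RNA-seq the log2 change of the ratio in KO1 against WT was 0.56 for Fn1, with a median of 0.03 and a range from -0.30 (percentile 5) to 0.33 (percentile 95) over 961 genes. Only Lars, a leucyl-tRNA synthetase, was higher, at 0.57, and 4 genes differed more from 0 in either direction. For KO2 Fn1 stood at -0.04, with 581 genes higher, and for KO3 at 0.03, with 400 genes higher. In Ribo-seq Fn1 in KO1 was at 0.28, and 37 of 418 genes were higher.

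**Figure D4:**
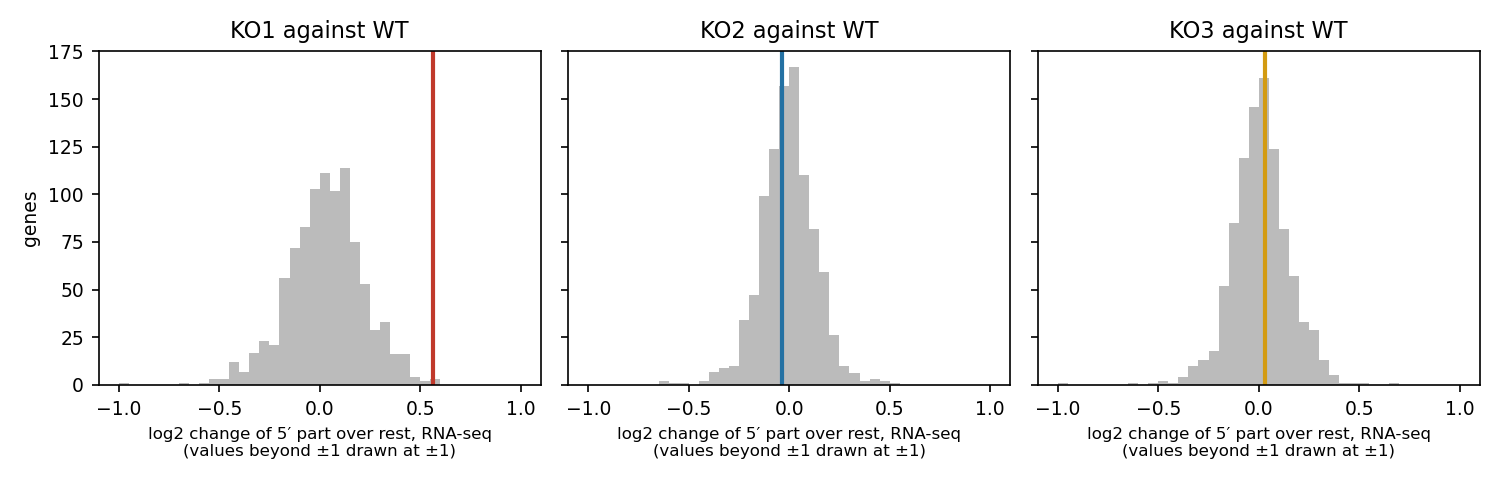
Histograms of the log2 change, clone against WT, in the RNA-seq ratio of a short transcript from the start codon to the rest of the coding sequence (x axes) over 961 genes (y axis, number of genes). The vertical line is Fn1, at 0.56 in KO1, -0.04 in KO2 and 0.03 in KO3.

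EDA was measured by the transcripts that differ in it alone. The count of a transcript with EDA minus that of its partner without EDA gives the reads on EDA and its junctions less the reads that join the exons around it. All 3 such pairs gave the same difference in each of the 16 libraries. In RNA-seq the difference was 818 and 836 counts for WT, 462 and 446 for KO1, 716 and 866 for KO2 and 1039 and 1049 for KO3. Both KO1 libraries lay below the other 6. Relative to the rest of the coding sequence, per codon, EDA stood at 0.746 and 0.752 for WT, 0.537 and 0.581 for KO1, 0.739 and 0.731 for KO2 and 0.790 and 0.749 for KO3. In footprints it stood at 0.831 and 0.774 for WT, 0.627 and 0.443 for KO1, 0.763 and 0.803 for KO2 and 0.725 and 0.823 for KO3. KO1 was below the other 6 in both assays, though the Ribo-seq value of KO1 replicate 2 comes from 41 counts. As a share of the counts, Fn1-214 had 102.84% and 102.85% of the RNA count of Fn1-203 in WT and 101.86% and 102.01% in KO1.

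V was likewise lower in KO1 relative to the rest of the coding sequence. Fn1-210, in whose codon range V lies, was lower in KO1 RNA as well. It had 4.36% of the Fn1-214 count in both KO1 libraries and 4.93% to 5.33% in the other 6. In footprints its share was 5.49% and 5.87% in KO1 and overlapped with 5.69% to 6.67% in the other 6. A change of EDA or V apart from their place along the coding sequence was not tested. Relative to the rest, the log2 change in KO1 RNA was -0.42 for EDA and -0.15 for V. By the ratio of counts it was -0.013 for EDA and -0.017 for V. That ratio also holds the reads common to both transcripts, which bring it towards 0. The reads on the part itself are a smaller share of the count for EDA than for V. The ratio of counts therefore does not rank EDA against V. The count of Fn1-214 was 107.2% and 106.9% of that of Fn1-213 in the WT RNA-seq libraries, 105.8% in both of KO1, 107.2% in both of KO2 and 107.0% and 106.9% in KO3. Relative to the rest, V stood at 1.36 and 1.32 in WT RNA, 1.21 and 1.20 in KO1, and 1.32 to 1.36 in KO2 and KO3. In footprints it was at 1.21 and 1.25 for WT, 1.07 and 0.948 for KO1, 1.43 and 1.29 for KO2, and 1.19 and 1.20 for KO3. KO1 lay below the other 6 in both assays.

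EDB was at the edge of what these counts show. In RNA-seq the count of Fn1-201 was below that of Fn1-214 in all 8 libraries, and the difference was between -169 and -21 counts: more reads joined the exons around EDB than lay on it. In Ribo-seq the difference was between 6 and 51 counts, with 24 and 6 in KO1 and 27 to 51 in the other 6 libraries. With the counts given only as these differences, neither EDA, V nor EDB can be turned into a share of transcripts.

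**Figure D5:**
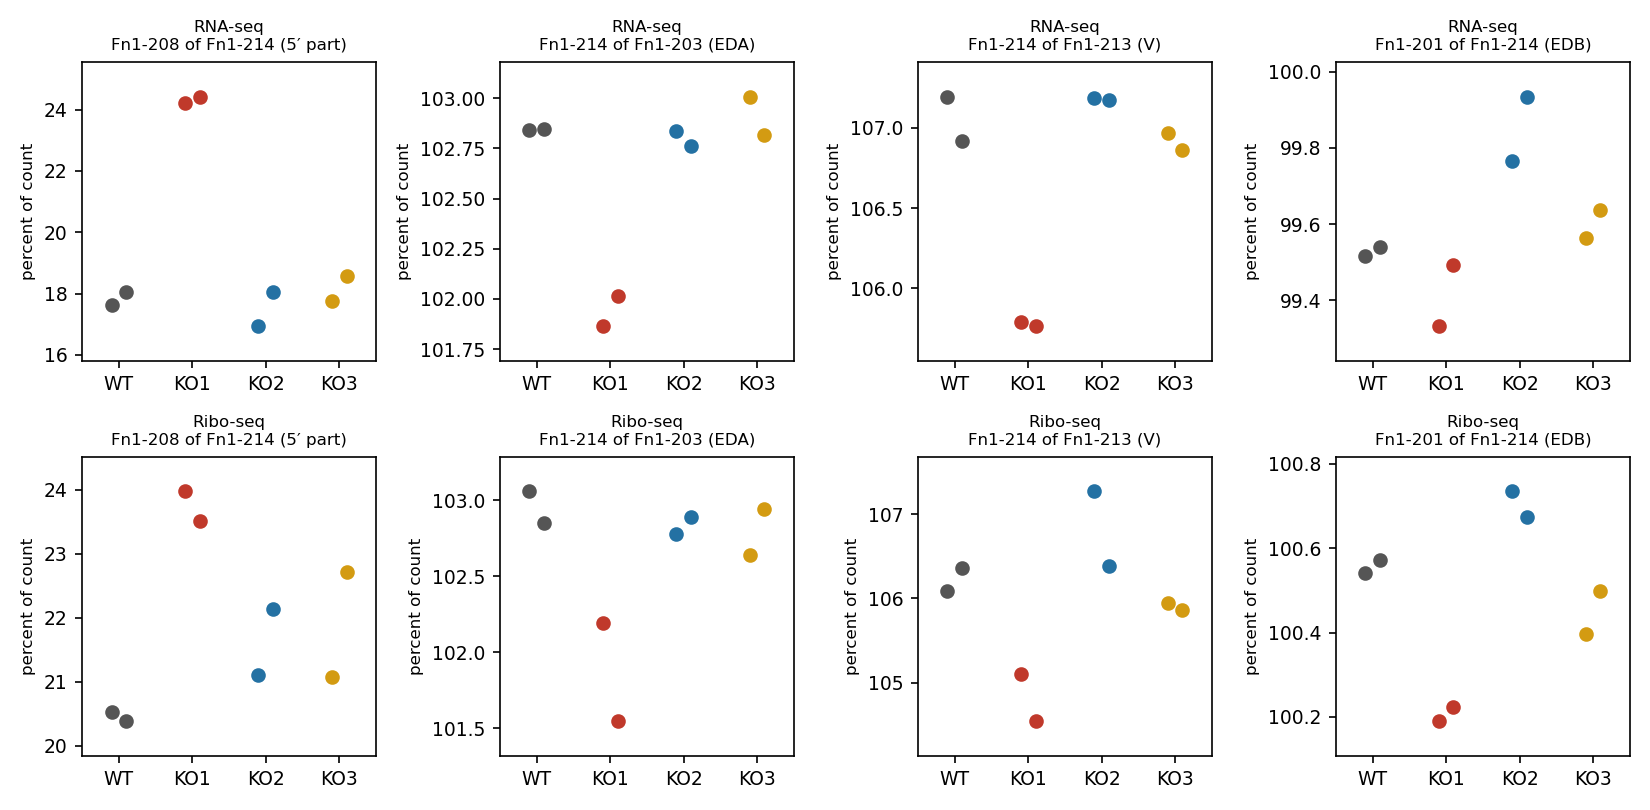
Count of 1 Fn1 transcript as a percentage of another in each library (y axes, which do not start at 0), for the start of the coding sequence, EDA, V and EDB, with RNA-seq above and Ribo-seq below. Points are replicates. KO1 stands above the other lines for the start (24.2% and 24.4% in RNA) and below them for EDA and V in both assays.

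Of 30 genes for fibronectin receptors and adhesion, 24 were tested (25 in KO3 RNA). In RNA, 7 rose and 10 fell in KO1 (70.8% of the list, beside 46.7% of genes called). In KO2 6 rose and 4 fell (41.7%, beside 19.9%), and in KO3 6 rose and 8 fell (56%, beside 44%). The medians of the list were -0.17, 0.11 and -0.03 on the log2 scale, beside 0.0024, -0.0042 and 0.00041 over all transcripts tested. DESeq2 called 6 genes in KO2 in place of 10. In footprints 7 rose and 9 fell in KO1 (66.7% of the list, beside 26.5% of genes called). In KO2 2 rose and 5 fell (29.2%, beside 11%), and in KO3 3 rose and 8 fell (45.8%, beside 29%). DESeq2 called 4 of these genes for KO2 footprints, 5 for those of KO3 and 11 for those of KO1. In TE edgeR called 0 of the 24 in each clone (0.146%, 0.0259% and 0.121% of genes called), DESeq2 called 0, and 3, 4 and 2 had an unadjusted p under 0.05. Itgb1, a subunit of fibronectin receptors, fell by 0.25 in KO1 RNA (SE 0.0423, edgeR adjusted p = 1.71e-06) and rose by 0.19 in KO2 (SE 0.0504, edgeR adjusted p = 0.0115). In KO3 the log2 change of Itgb1 was -0.07 (edgeR adjusted p = 0.258). Itga5, which pairs with it, rose by 0.73 in KO1 (SE 0.0895, edgeR adjusted p = 7.18e-10), from 15.8 and 16.4 to 26.9 and 26.6 CPM. In KO2 and KO3 its log2 changes were 0.15 and -0.13, with edgeR adjusted p = 0.349 and 0.347. Itga3, an integrin subunit that mainly binds laminins, fell by 0.17, 0.27 and 0.26 in the 3 clones (edgeR adjusted p = 0.00155, 0.000235 and 3.02e-06). Tln1, which links integrins to actin, rose by 0.47 in KO1 (edgeR adjusted p = 4.24e-14), fell by 0.21 in KO3 (edgeR adjusted p = 0.000511) and had 0.11 in KO2 (edgeR adjusted p = 0.131). Bcar1, an adaptor of focal adhesions, rose by 0.39 in KO1 and 0.52 in KO2 and fell by 0.25 in KO3 (edgeR adjusted p = 2.18e-09, 3.63e-08 and 0.00011). Members of the list thus moved in both directions within each clone.

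Of 27 splicing factors, 26 were tested. In RNA, 6 rose and 5 fell in KO1 (42.3% of the list, beside 46.7% of genes called), 0 rose and 1 fell in KO2 (3.85%, beside 19.9%), and 6 rose and 6 fell in KO3 (46.2%, beside 44%). The shares in KO1 and KO3 were thus near those of all genes. The list medians were 0.05, -0.04 and 0.05. Of 25 tested in footprints, 1 rose in KO1, where 26.5% of genes were called, and 3 rose and 6 fell in KO3, where 29% were. In KO2 footprints edgeR called 0, where 11% of genes were called, with 1 at an unadjusted p under 0.05 and 0 called by DESeq2. TE calls, beside 0.146%, 0.0259% and 0.121% of genes, were 0 of 26 in each clone by edgeR and by DESeq2, with 6, 0 and 2 at an unadjusted p under 0.05. Hnrnpa1, an RNA-binding protein that often favours exon skipping, rose by 0.32 in KO1 RNA (SE 0.039, edgeR adjusted p = 6.96e-10) and fell by 0.20 in KO2 and by 0.33 in KO3 (edgeR adjusted p = 0.00453 and 8.16e-09). Hnrnpa2b1, of the same family, rose by 0.32 in KO1 (edgeR adjusted p = 8.58e-10) and fell by 0.33 in KO3 (edgeR adjusted p = 5.15e-08), and in KO2 it had -0.03 (edgeR adjusted p = 0.72). Hnrnpf rose by 0.19 in KO1 and fell by 0.16 in KO3 (edgeR adjusted p = 4.81e-05 and 0.00174), with 0.07 in KO2 (edgeR adjusted p = 0.33). Ptbp1, a pyrimidine tract-binding protein, rose by 0.19 in KO3 (edgeR adjusted p = 0.00051), and in KO1 and KO2 it had -0.05 and -0.05 (edgeR adjusted p = 0.363 and 0.536). Which of these factors act on Fn1 was not tested.

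Over the 16 libraries, the genes whose log2 CPM followed that of Fn1 most closely within each assay were Clic1 (Pearson r = 0.812), Hcfc1 (0.799), Sf3b4 (0.751), Rpn2 (0.739) and Fam120a (0.727), among 2179 genes compared. The libraries share lysates, depth and clone, and the r values are a description. In KO1 against WT, the TE changes of these genes were 0.15, 0.19, 0.17, 0.25 and 0.14, against 0.64 for Fn1. The KO1 and WT libraries were among those that picked these genes and Fn1 itself, so these TE changes are a description as well. Spearman's rho over the same libraries shared 1 of these 5 genes, and Pearson's r over 8 means shared 2.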

How the data were processed

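RNA-seq and Ribo-seq of WT, KO1, KO2 and KO3 Hepa1-6 cells were analysed from 1 table of counts. Per the paper's methods, the authors trimmed reads with fastp 0.21.0, removed noncoding RNA reads, aligned the rest to mm10 with STAR 2.7.0a and deposited whole-number counts at A-site positions per coding sequence, without the first and last 5 codons and without normalization. The labels name polyA RNA for RNA-seq and their protocol rRNA depletion, which was not settled. All 12 Fn1 identifiers matched GENCODE vM21, which gave the coordinates, although the authors used a later release. The members and gene lists were chosen with earlier results of these data known.

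Counts were tested in R 4.3.3 with edgeR 4.0.16 (quasi-likelihood, TMM within each assay, filterByExpr, Benjamini-Hochberg over all transcripts, 0.05). TE was the interaction of line and assay over 8 libraries. DESeq2 1.42.0 was an alternative, as were other size factors, filters, 1 transcript per gene, all lines in 1 fit, blocks, thinning and leaving out each replicate. The TE fit of KO3 against KO2 was tested on simulated data. These had 1 transcript per gene, the same spread for all genes and no shared lysates, and so were simpler than the data here. The 5′ part needed at least 100 RNA and 30 footprint counts per gene. Likeness used genes with at least 100 counts in every library and a prior count of 1. Named were Fn1, the 5 genes most like it, and the 4 most abundant of each list plus Itga5 and Itgb1 and any list gene called in TE. RNA and footprints of a replicate share a lysate per the labels, and their replicate differences correlated (r = 0.312, 0.359, 0.151 and 0.176 in WT, KO1, KO2 and KO3).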

Additional observations from a re-analysis of the deposited data

Results flagged for a closer look

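The 3 clones, which all lack exon 5 of Eef1d, differed in Fn1. Between KO3 and KO2 the difference was tested, with a log2 difference of 0.24 in Fn1-214 RNA and of 0.21 in footprints (edgeR adjusted p = 0.000251 and 0.0154). In RNA, both KO1 libraries lay below both WT libraries (-0.28) and both KO3 libraries above them (0.17), and the difference between these changes was not tested. For footprints, KO1 lay above WT (0.37) and KO2 below (-0.25), again without a test of the difference. The TE change was 0.64 in KO1 and -0.22 in KO3, which was not tested either.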

How the results depend on the processing

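With 2 replicates of each line, the spread between them limits the Fn1 values. Few counts limit Fn1-209, EDB and KO1 footprints at EDA. The RNA call of KO3 against KO2 stayed under all alternatives run (0.16 to 0.31). The footprint call was lost with DESeq2 (0.21) and in thinned libraries (0.18), and leaving out replicates gave 0.10 to 0.33. The TE difference ran from -0.19 to 0.15 without single replicates, turned positive without KO3 replicate 2 (0.04) and without KO2 replicate 1 (0.15), and was never called. For Fn1-208 it ran from -0.24 to 0.12. Without single replicates, TE of KO2 against WT was -0.36 to -0.02 (-0.023 without KO2 replicate 2), its footprints -0.37 to -0.13, and RNA of KO3 against WT 0.10 to 0.25. The causes were not tested.

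Nothing in the labels makes the replicate number a pairing across lines. Replicate differences correlated from -0.064 to 0.46 between lines in RNA and from 0.16 to 0.25 in footprints, and between KO2 and KO3 at 0.46 and 0.24. With it as a replicate block, KO3 against KO2 gave 0.24 in RNA, 0.21 in footprints and -0.03 in TE, and with the lysate as the block -0.02 in TE. The blocks changed no call of Fn1-214.

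DESeq2 called 6 receptor and adhesion genes in KO2 RNA, and leaving out replicates gave 5 to 11. Splicing factors called in RNA numbered 7 to 11 for KO1 and 0 to 2 for KO2 without single replicates, and up to 14 for KO1 under the other alternatives (with the replicate block).

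Each ratio of transcripts was also taken against the difference of the counts, as log2 change against WT. The start then gave 0.56 in KO1 RNA and 0.28 in KO1 footprints. EDA gave -0.42, -0.028 and 0.038 in RNA and -0.61, -0.036 and -0.054 in footprints for KO1, KO2 and KO3. V gave -0.15, 0.018 and -0.022 in RNA and -0.29, 0.14 and -0.046 in footprints. Fn1-206 in place of Fn1-208, chosen after seeing the data, gave -0.021 in KO3 RNA and 0.27, 0.17 and 0.17 in footprints. With single replicates left out, the ratio of counts ranged at the start from -0.076 to 0.018 in KO2 RNA and from 0.043 to 0.15 in KO3 footprints. At EDA it ranged from -0.00037 to 0.0023 in KO3 RNA and from -0.020 to -0.011 in KO1 footprints. At V it ranged from -0.019 to -0.016 in KO1 RNA, from -0.00019 to 0.0035 in KO2 RNA, where it turned negative without WT replicate 2, from -0.0038 to -6.9e-05 in KO3 RNA, and from 0.0021 to 0.014 in KO2 footprints.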

Other observations

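V can lack its beginning of 25 codons, and their RNA level relative to the rest was also lower in KO1. As with V as a whole, a change apart from the place along the coding sequence was not tested. In RNA-seq the count of Fn1-214 less that of Fn1-211, per codon and relative to the rest of the coding sequence, was 2.16 to 2.18 in KO1 and 2.37 to 2.60 in the other 6 libraries. In Ribo-seq it was 0.739 to 0.933 in KO1 and 0.924 to 1.12 in the other 6, which overlapped, and it came from 19 to 112 counts. RNA-seq reads are longer than footprints, so levels of so short a part compare only within an assay.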
